A study of Mus musculus with 2 samples.

Results

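Cytosolic ribosomal protein genes were described in 2 clones of mouse mesoangioblasts, D351 and D16. The genes were chosen by symbol alone: every probe set whose only platform symbol begins with Rpl or Rps and a digit, or with Rplp, or is Rpsa, leaving out the Rps6k kinases and pseudogenes. This gave 47 probe sets for 34 genes, 17 with large subunit symbols and 17 with small subunit symbols, among 8251 genes with a single symbol on the array. Mesoangioblasts are progenitors associated with vessels that form mesodermal tissues. D351 and D16 were both cloned from the dorsal aorta of mouse embryos (C57BL6, embryonic day 9.5) after 5 days of explant culture. Single cells were grown over mitomycin-treated embryonic fibroblast feeders in RPMI with 20% fetal calf serum, and the clones were expanded on gelatin. No genetic change or treatment is labelled in either clone. Each clone is a single line from 1 founder cell measured on 1 Affymetrix U74A array, so the differences have no test and no replicate error, and a difference between the clones cannot be told apart from one between cultures or arrays.

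A cytosolic ribosome joins a small subunit, which decodes the messenger RNA, to a large subunit, which forms peptide bonds. Ribosomal proteins coat and stabilise the ribosomal RNA and are needed in matched amounts, and growing cells spend a large part of their RNA synthesis on ribosomes. Their messenger RNAs are short and abundant, and in mammals most begin with a cytosine in a run of pyrimidines (the terminal oligopyrimidine or TOP sequence), through which mTOR signalling and the protein LARP1 control translation.

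The start of the transcript is the sequence these genes share, and it was looked up because the rule did not use it. RefSeq promoter windows of mouse build GRCm38.p6, which run from 250 bases before to 50 bases from an annotated start, were present for 28 of the 34 genes. The annotated start was a C within a run of at least 5 pyrimidines in 5 of the 28 genes (17.9%), against 3.01% of all 27025 genes with a window. These 5 are shown for 15 bases on each side of the start, 5′ to 3′, with the pyrimidine run that begins at the start in capitals.
Rps10 (chr17:27635230-27635259, minus strand): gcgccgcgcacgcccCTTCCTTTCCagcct
Rps18 (chr17:33955651-33955680, minus strand): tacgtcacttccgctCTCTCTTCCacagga
Rpl38 (chr11:114668565-114668594, plus strand): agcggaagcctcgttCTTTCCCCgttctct
Rpl35a (chr16:33056467-33056496, plus strand): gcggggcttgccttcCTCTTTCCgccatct
Rps27 (chr3:90213634-90213663, minus strand): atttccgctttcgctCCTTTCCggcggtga

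The run was 10 bases in Rps10, 9 in Rps18, 8 in Rpl38 and Rpl35a and 7 in Rps27. Where an annotated start lies some bases from the true one, no run is found at it, so this count depends on the annotation. The motif CCGGAAG, a core that ETS factors such as GABPA bind, was searched on both strands (CTTCCGG on the other). It was found in a window of 12 of the 28 genes (42.9%), against 9.93% of all genes. AAGATGG, part of the YY1 motif, also searched on both strands, was found in 7 (25%), against 7.28%. Both motifs were present in the window of Rps7, and among genes with a measured ratio CCGGAAG began nearest to the start in the following 3, shown with the motif in capitals.
Rps3a1 (chr3:86142659-86142688, minus strand): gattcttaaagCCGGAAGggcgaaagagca
Rps7 (chr12:28635949-28635978, minus strand): tttcagaagagCTTCCGGtttccacccacc
Rpl6 (chr5:121204502-121204531, plus strand): ttgcttatagaCCGGAAGccgctgccttag
The motif began 9 bases before the annotated start in Rps3a1, 14 before it in Rps7 and 12 after it in Rpl6. A gene with several annotated starts was counted once, if any window held the feature.

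Levels below are array intensities brought to the same median in both arrays, and log2 ratios are of D351 over D16, so a negative value means lower in D351. An intensity of 17.4 served as the floor, below which a level was not read as signal. Each gene is given by its brightest probe set. The labelled cell type was checked first. Mesenchymal genes were high, with Col1a1 at 3770 in D351 and 1539 in D16 and Thy1 at 1041 and 1535 in the same order. S100a4, also a mesenchymal marker, measured 414 in D351 and 1835 in D16. The smooth muscle actin gene Acta2 measured 1685 in D351 and 940 in D16, and Tagln 1883 and 643 in the same order. The other smooth muscle markers Cnn1, Myh11 and Des were at 157, 48.2 and 41.0 in D351 and below the floor in D16. Vim, which mesenchymal cells are known to express strongly, was near the floor in both (23.5 in D351, 22.3 in D16). Of the markers of other cell types, Ptprc, Cdh5, Tek, Kdr, Epcam, Krt18 and Kit reached the floor in neither clone. The macrophage gene Cd68 was at 36.9 in D351 and below the floor in D16, and the haemoglobin gene Hba-a1 was below the floor in D351 and at 30.1 in D16. Cdh1, an epithelial cadherin gene, was low in both (59.0 in D351, 72.5 in D16), as was the endothelial gene Pecam1 (20.2 in D351, 30.8 in D16), and the progenitor marker Cd34 was below the floor in D351 and at 475 in D16. The part of such cells in the ribosomal protein values was not tested. In D351 59.3% of non-control probe sets were at or above the floor, and in D16 60.7%.

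Ribosomal protein genes were on the whole slightly lower in D351. Of the 34 genes, 24 reached the floor in both clones, 2 in D16 alone and 8 in neither. Among the 26 with a ratio, the median log2 ratio was -0.35, a level 1.27-fold lower in D351, and their interquartile range was -0.45 to -0.22. The median over all 6098 genes with a ratio was -0.03. The ratio was negative in 23 of the 26 genes, against 51.6% of all genes, and in 21 of the 24 measured in both clones, against 51%. Only 1 member, Rpl13a, was at least 2-fold lower in D351 (background 8.87%) and 0 were at least 2-fold higher (background 10.6%). At 1.5-fold, 4 were lower in D351 (background 21%) and 0 higher (background 21.1%). Genes of this group were thus past either size no more often than genes at large, and most shared a small difference in 1 direction. The error that the files allow is the spread between probe sets of 1 gene, with an SD in log2 ratio of 0.52 (806 genes), or 0.42 in the brightest 269.

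**Figure D1:**
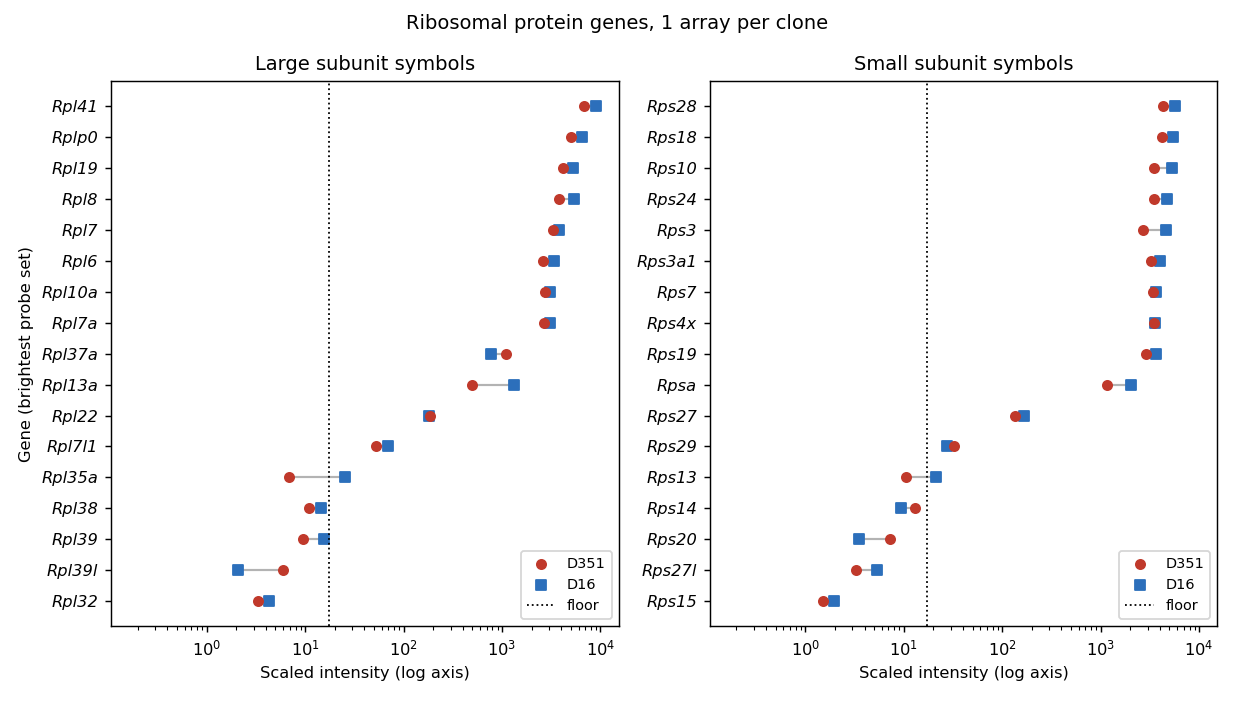
Scaled intensity (log axis) of the brightest probe set of each of the 34 genes, in D351 (circles) and D16 (squares), 1 array each, with the floor of 17.4 as a dotted line. Of these, 17 have a mean level of at least 2000 with D351 just left of D16, and 8 genes lie below the floor in both clones.

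The shift is of the size at which array scaling matters. The 9 hybridization control probe sets, which detect transcripts added to the sample before hybridization, lay at -0.39 by median, the lowest at -0.50 and the highest at 0.01. The bright control CreX-3 measured 2603 in D351 and 3655 in D16 (-0.49), at the level of many ribosomal protein probe sets. Bright control probe sets for the cells' own transcripts varied. Those of Actb gave -0.16 (3′), -0.004 (middle) and 0.24 (5′), and those of Gapdh -0.34, -0.31 and -0.22 in the same order. With the arrays scaled on the hybridization controls, the members' median was 0.04, while that of all genes was 0.34. With quantile normalization it was -0.02 (all genes -0.03), and with an intensity-dependent loess -0.08 (all genes 0.00). The negative sign of the group thus holds under equal medians and for the values as deposited (-0.40), becomes near 0 under quantile and loess scaling, and turns positive under the controls. Quantile and loess scaling used the ribosomal probe sets too. At a mean level of at least 2000 these were 17 genes and 22 probe sets with several symbols, beside 42 other genes. A shift shared by the group can thus enter these 2 scalings and be partly removed, and how much was not tested. Relative to all genes, the members were lower by 0.32 under equal medians, 0.32 as deposited and 0.31 under the controls, against 0.08 under loess. Under quantile scaling they were not lower, with a difference of 0.01. Equal medians, the deposited values and the controls differ only by a factor on each whole array. The differences of 0.32, 0.32 and 0.31 were thus alike by construction, apart from what the floor changed.

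**Figure D2:**
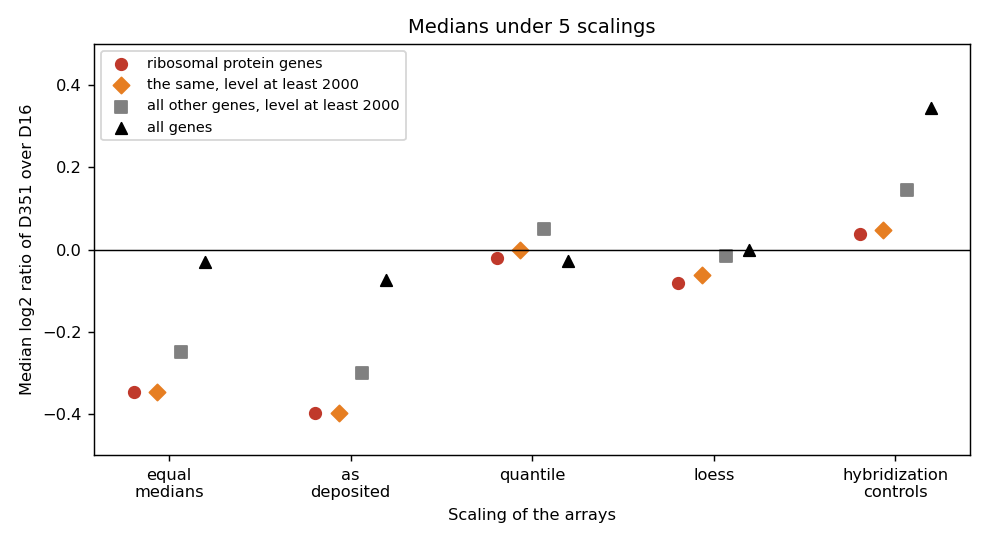
Median log2 ratio of D351 over D16 (vertical axis) under 5 scalings of the arrays, for all ribosomal protein genes, those with a mean level of at least 2000, all other genes at that level, and all genes. The members lie about 0.3 below all genes under the 3 scalings that differ only by a factor on each whole array. Under quantile and loess they lie within 0.1 of all genes.

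Level is given beside the ratio because ribosomal protein probe sets are among the brightest on the array. In 17 of the 34 genes the mean level was at least 2000, a limit chosen after the values were seen. All 17 were lower in D351, with a median of -0.35 and a range from -0.77 to -0.03. That count depended on the scaling: 7 of the 17 were lower under quantile normalization (median 0.00), 13 under loess (-0.06) and 4 under the hybridization controls (0.05). The 42 other genes at that level had a median of -0.25 under equal medians, and 66.7% of them had a negative ratio. Their median moved with the scaling too: 0.05 under quantile normalization, -0.01 under loess and 0.14 under the controls. Their share of negative ratios under these scalings was not counted, so the members' counts there have no background. The distance between the medians of the members and of the other bright genes was 0.10 under equal medians and 0.05 under quantile and under loess scaling. At this level the members were more alike than the others: the SD of their log2 ratios was 0.18, against 0.53 for the other bright genes, which ran from Dlk1, a secreted and membrane-bound progenitor protein (-1.58), to Col1a1 (1.29). The dimmer members did not share this. The 7 under 2000 that were measured in both clones had an SD of 0.65 and a median of -0.28. Of these, 4 were lower in D351 and 3 higher, beside 51% lower among all such genes. In the top 10% of all genes by level, the 20 members had a median of -0.36 and the 806 other genes 0.03. These 2 sets are not matched in level. The median level was 3357 in D351 and 3899 in D16 for the members. For the other genes measured in both clones it was 644 and 615 in the same order. The difference in spread and in median was not tested, since genes of 1 array pair are not replicates.

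Probe sets that the rule left out, because the platform table gives them several symbols of which 1 is a ribosomal protein and the rest mostly pseudogenes, gave a second reading from the same arrays. Of 38 such probe sets, 34 had a ratio, with a median of -0.32. At a mean level of at least 2000 there were 22, with a median of -0.35, and 21 of these were lower in D351. The median of all 34 was -0.02 under quantile normalization, -0.10 under loess and 0.08 under the controls. They name no gene here.

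**Figure D3:**
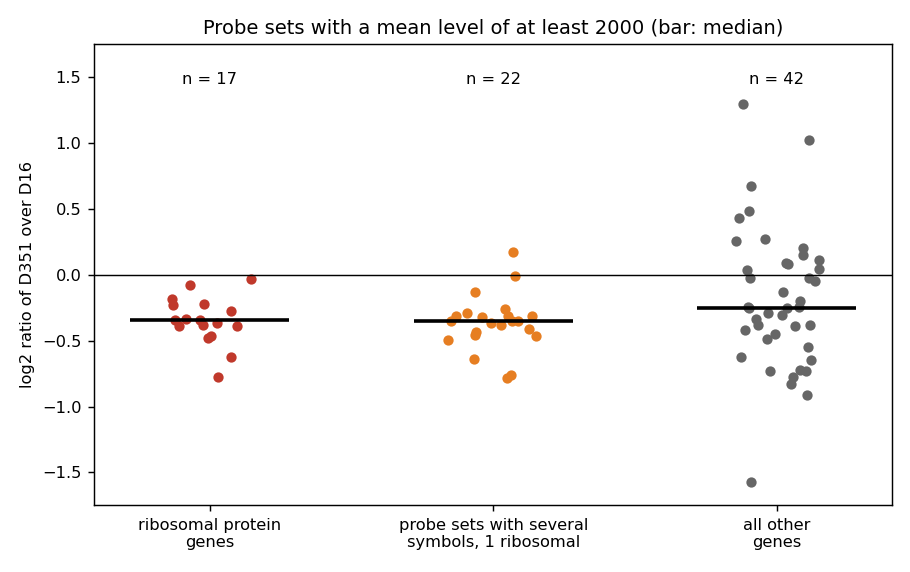
Log2 ratio of D351 over D16 (vertical axis) for probe sets with a mean level of at least 2000: 17 ribosomal protein genes, 22 probe sets with several symbols of which 1 is a ribosomal protein, and 42 other genes. Points are genes or probe sets, bars are medians at -0.35, -0.35 and -0.25. Under this scaling (equal medians) the first group is narrow and entirely below 0. Under the hybridization controls 4 of its 17 genes are below 0, and the median of the 42 other genes is 0.14.

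Large and small subunit genes had nearly equal medians. The 13 large subunit genes with a ratio had a median of -0.37 and the 13 small subunit genes -0.35, a difference of -0.02. Among genes measured in both clones the medians were -0.35 for 12 large subunit genes and -0.35 for 12 small subunit genes. At a level of at least 2000 they were -0.35 for 8 large subunit genes, ranging from -0.48 to -0.18, and -0.35 for 9 small subunit genes, ranging from -0.77 to -0.03. Large minus small was -0.02 under equal medians, as deposited and under the controls. These differ only by a factor on each whole array, which could change it only through the floor. It was 0.004 under quantile and 0.07 under loess scaling. Of the 13 small subunit genes, 3 (Rpsa, Rps3 and Rps10) were at least 1.5-fold lower in D351, and of the 13 large subunit genes 1 (Rpl13a). The background was 21% of all genes, and no contrast between the subunits is read from these small counts.

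Among large subunit proteins, Rpl41, the smallest ribosomal protein, was the brightest member, at 6833 in D351 and 8950 in D16 (-0.39), by a probe set of the f type, which can match related transcripts. Rplp0, which anchors the stalk that recruits elongation factors, measured 4996 in D351 and 6545 in D16, also -0.39. Rpl8, which lies close to the peptidyl transferase centre, measured 3823 in D351 and 5326 in D16 (-0.48). Rpl19, at the rim of the peptide exit tunnel, measured 4134 in D351 and 5217 in D16 (-0.34). Of these 4 genes Rpl8 lay just outside the group's interquartile range and the others inside it. In each of them the D351 level was between 71.8% and 79.2% of the D16 level.

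Rpl6 measured 2628 in D351 and 3388 in D16 (-0.37). Rpl7, read by a probe set of the s type that can share targets, measured 3269 in D351 and 3829 in D16 (-0.23). Rpl7a measured 2646 in D351 and 3081 in D16 (-0.22). Rpl10a, part of the mobile stalk at the tRNA exit side, had the smallest difference of the bright large subunit genes, with 2726 in D351 and 3091 in D16 (-0.18), and its other probe set gave -0.26.

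The large subunit members away from this cluster were dimmer. Rpl13a, which in human monocytes also leaves the ribosome to silence inflammatory messenger RNAs, measured 498 in D351 and 1309 in D16, 2.63-fold lower in D351 (-1.39), the largest difference among genes measured in both clones. Rpl35a, a bound of -0.54 at this floor, reached -1.80 with the floor at the 25th percentile. Rpl13a is encoded on chromosome 7, where all 388 genes measured in both clones had a median of -0.30. Rpl37a, a zinc-binding protein, went the other way, with 1101 in D351 and 776 in D16, 1.42-fold higher (0.50). Rpl22, which has an RNA-binding role in T cell development in mice, was level in the clones by its brighter probe set (184 in D351, 180 in D16), while its other one was below the floor in D351 and at 24.1 in D16. Each of Rpl13a and Rpl37a rests on 1 probe set of this array.

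In the small subunit, Rpsa, also known as the laminin receptor precursor, measured 1170 in D351 and 2035 in D16, 1.74-fold lower in D351 (-0.80). Rps3, at the channel where messenger RNA enters, measured 2690 in D351 and 4602 in D16, 1.71-fold lower (-0.77). Rps10, a protein of the head near that channel, measured 3468 in D351 and 5333 in D16, 1.54-fold lower (-0.62). Just inside the 1.5-fold limit was Rps10, and just outside it were Rpl35a (-0.54, a bound) and Rpl37a (0.50). Rpl13a alone was past 2-fold, and the next were Rpsa and Rps3.

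Near the median were Rps28 (4330 in D351, 5635 in D16, -0.38), Rps18 (4225 in D351, 5371 in D16, -0.35) and Rps19, the first gene found mutated in Diamond-Blackfan anaemia in humans (2897 in D351, 3684 in D16, -0.35). Rps24 measured 3449 in D351 and 4752 in D16 (-0.46), by a probe set of the r type, designed under relaxed rules. Its other probe set, close to the floor at 18.5 in D351 and 25.1 in D16, gave -0.44. Rps3a1 measured 3281 in D351 and 3969 in D16 (-0.27). All 5 were thus between 1.21-fold and 1.38-fold lower in D351.

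Least different among the bright genes were Rps7 (3432 in D351, 3624 in D16, -0.08) and Rps4x (3479 in D351, 3563 in D16, -0.03). Rps4x lies on the X chromosome, whose 144 genes measured in both clones had a median of 0.30. Xist, which silences 1 X chromosome in female cells, was at 71.7 in D351 and below the floor in D16. What part the chromosome has in the value of Rps4x was not tested.

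**Figure D4:**
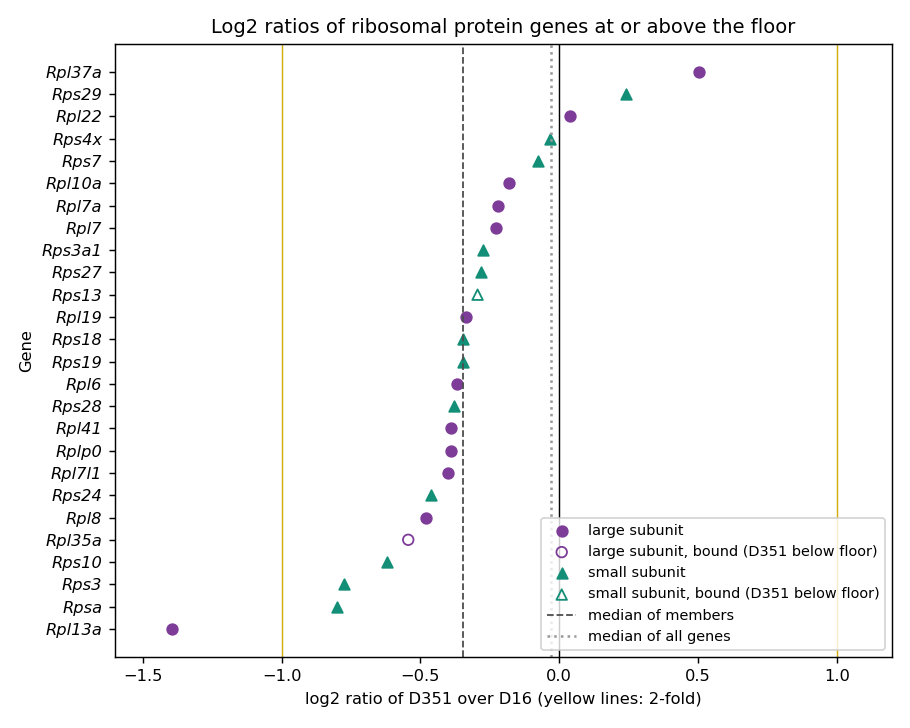
Log2 ratio of D351 over D16 (horizontal axis) for the 26 genes with a ratio, ordered from lowest at the bottom, with large subunit genes as circles and small subunit genes as triangles; open symbols are bounds because D351 was below the floor. Dashed and dotted lines mark the medians of members (-0.35) and of all genes (-0.03), yellow lines 2-fold. The 2 subunits are interleaved, and 1 gene, Rpl13a, lies past 2-fold.

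At low levels the readings are weak. Rps27 measured 136 in D351 and 166 in D16 (-0.28), Rpl7l1 52.4 in D351 and 69.1 in D16 (-0.40), and Rps29 32.2 in D351 and 27.3 in D16 (0.24). Rpl7l1 carries a matching symbol but is a paralog thought to act in ribosome assembly rather than a standard ribosomal protein. Rpl35a was below the floor in D351 and at 25.4 in D16, so it was at least 1.46-fold lower in D351, and Rps13, below the floor in D351 and at 21.3 in D16, at least 1.23-fold lower. Both had a ratio only through the D16 array and are no support for a direction.

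Below the floor in both clones were Rpl32, Rpl38, Rpl39, Rps14, Rps15 and Rps20, all standard ribosomal proteins, and the paralogs Rpl39l, known from testis, and Rps27l, a p53 target. Rpl39 was at 9.56 in D351 and 15.7 in D16, and Rps15 at 1.53 in D351 and 1.97 in D16. Since ribosomes of dividing cells need these proteins, a value below the floor says only that the probe set gave no signal here, and no absence of the messenger RNA is read from it. The labels name the array U74A without a version, while the table that names the probe sets is that of version 2. No mismatch between them is shown, and what part, if any, the array version has in the low values was not tested. Probe sets of 1 gene could differ in the same way: of 5 for Rps4x, 1 was above the floor in both clones. In all, 16 of the 47 probe sets were below the floor in both arrays and 27 above it in both.

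Only 3 genes had a second probe set above the floor in both clones, which is the internal check on the ratios. The ratios were -0.18 and -0.26 for Rpl10a and -0.46 and -0.44 for Rps24. They differed in sign for Rps28, with -0.38 for the brighter probe set and 0.22 for the second, of the f type (4412 in D351, 3783 in D16). That difference of 0.60 is larger than the group's median shift.

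By position in the particle, the small subunit head had 6 genes with a ratio (median -0.36) and the body 7 (median -0.28). Of those measured in both clones, 5 of 6 in the head and 6 of 6 in the body were lower in D351, beside 51% of all such genes. Of the genes known to be mutated in Diamond-Blackfan anaemia in humans, 9 of 21 were on the array by a single symbol and 8 had a ratio, with a median of -0.36. Of the 7 measured in both clones 6 were lower in D351 (background 51%), and 1 of the 8, Rps10, was at least 1.5-fold lower (background 21%). The proteins that bind MDM2 when ribosome assembly is disturbed (Rpl5, Rpl11 and Rpl23) had no probe set with a single symbol. Mdm2 itself, the ubiquitin ligase of p53, measured 609 in D351 and 185 in D16 (1.72). Fau, a small subunit protein made as a ubiquitin-like fusion and outside the symbol rule, was below the floor in D351 and at 20.6 in D16.

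The other genes of protein synthesis were read from lists chosen with earlier results of these data known, and no list was tested. Genes of other TOP messenger RNAs, made alongside the ribosomal proteins, had a median of -0.25 (14 with a ratio, 0 past 2-fold either way). Eef1a1, the elongation factor that brings tRNA to the ribosome, measured 5225 in D351 and 6450 in D16 (-0.30), and Tpt1 4001 in D351 and 5052 in D16 (-0.34). Eef2, the translocation factor, was higher in D351 (2472, against 2066 in D16; 0.26). Of the 13 measured in both clones, 8 were lower in D351 (background 51%) and 5 higher.

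Ribosome assembly genes had the lowest median of these lists, -0.43 over 50 genes. Of the 47 measured in both clones 40 were lower in D351 (background 51%). At least 2-fold lower in D351 were 6 of the 50 (background 8.87%) and 0 at least 2-fold higher. Ebna1bp2, a nucleolar assembly factor of the large subunit, measured 83.1 in D351 and 247 in D16, 2.98-fold lower. Grwd1 was 2.77-fold lower (28.1 in D351, 77.8 in D16). Nop56, a core protein of the particles that methylate ribosomal RNA, was 2.76-fold lower (224 in D351, 619 in D16). Unlike the ribosomal proteins, this list hardly moved under quantile scaling (-0.44) or loess (-0.40). That was not particular to it. The mitochondrial ribosomal proteins were at -0.30 and -0.26 under these 2 scalings, and the translation factors at -0.25 and -0.21. Other TOP messenger RNAs moved to -0.03 and -0.08. The assembly genes were dimmer than the ribosomal proteins, with median levels of 135 in D351 and 184 in D16, against 3083 and 3654. Under the hybridization controls the assembly list was at -0.06, while all genes were at 0.34.

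RNA polymerase I genes, which make the ribosomal RNA precursor, had a median of -0.14 over 12 genes. Znrd1, a polymerase subunit, was 2.58-fold lower in D351 (112 in D351, 288 in D16), and Taf1a, a subunit of its promoter factor, at least 3.08-fold higher in D351 (53.6, below the floor in D16). The regulators had a median of -0.17 over 18 genes, 7 of them higher in D351, with 4 at least 2-fold lower (background 8.87%) and 1, Mdm2, at least 2-fold higher (background 10.6%). Max, the partner of MYC, had a log2 ratio of 0.72, and Mxd4, of the family that competes with MYC for MAX, 0.97. Myc, which drives ribosome synthesis, measured 74.1 in D351 and 160 in D16 (-1.11), and Mxd3, of the same family as Mxd4, 20.3 in D351 and 110 in D16 (-2.44), where the D351 level is close to the floor. Mtor measured 62.4 in D351 and 150 in D16 (-1.27). Of the genes with Rps6k symbols, taken by symbol alone, Rps6kb2 had a log2 ratio of -0.82 and Rps6kc1 0.91, and Rps6ka3 was below the floor in both.

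Of the most similar groups, the mitochondrial ribosomal proteins had a median of -0.28 over 60 genes, with 6 at least 2-fold lower in D351 and 0 higher, and the translation factors -0.26 over 34 genes, with 2 lower and 1 higher. Over all genes 8.87% were at least 2-fold lower and 10.6% at least 2-fold higher, so these counts are near or under the background. Mrps10 was the lowest of the mitochondrial genes (72.8 in D351, 279 in D16, -1.94). The interquartile range of the cytosolic genes was -0.45 to -0.22 and that of the mitochondrial ones -0.78 to 0.04. Whether the cytosolic genes differ from these lists was not tested. Beside these values, the 3′ control probe set of Actb over its 5′ one was 1.37 in D351 and 1.81 in D16 and that of Gapdh 1.44 in D351 and 1.56 in D16, and the part of RNA quality in the results was not tested.

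**Figure D5:**
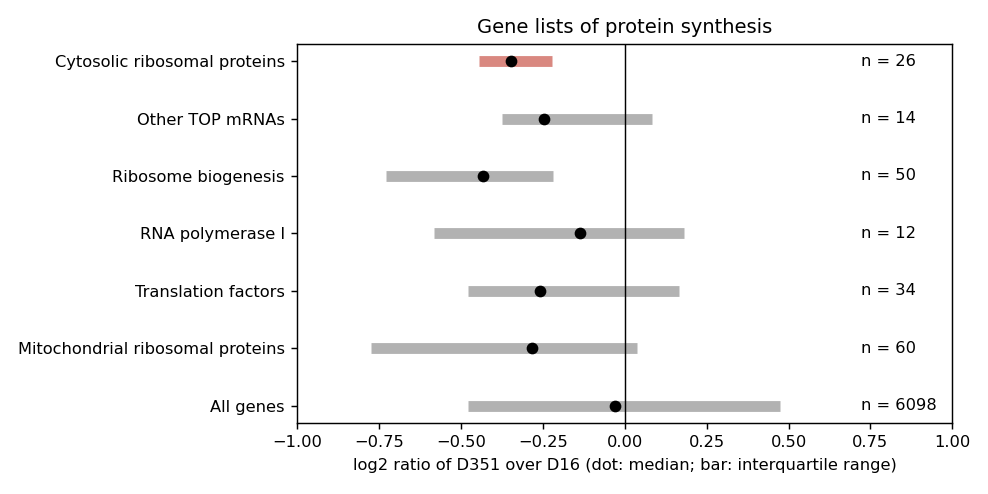
Log2 ratio of D351 over D16 (horizontal axis) for gene lists of protein synthesis, with the median as a dot and the interquartile range as a bar; n is the number of genes with a ratio. Under equal medians, shown here, the cytosolic ribosomal proteins have the narrowest bar, and the median of each list lies below that of all genes. Under quantile normalization the median of the cytosolic ribosomal proteins is -0.02 and that of all genes -0.03.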

How the data were processed

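The authors deposited linear intensity values for 12488 probe sets, 66 of them controls, in 1 table. Which software scaled them is not given in the sources used here. Their 2% trimmed mean is 100.1 in each array, which points to scaling to 1 target. Symbols come from a platform table of array version 2 (the labels read U74A), updated by Entrez number to RefSeq GRCm38.p6 for 10817 of 10833 probe sets with 1 symbol; 396 have several and 1193 none. Rps4l, a transcribed pseudogene in RefSeq, was left out.

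The arrays were multiplied by 1.02 (D351) and 0.983 (D16) to equal median log2 levels. The floor was the 40th percentile of scaled values, and values below it were set to it. Differences were counted at 2-fold and 1.5-fold. Members and lists were chosen with earlier results of these data known. Named genes are the 6 highest and 6 lowest ratios, the 5 brightest, those with disagreeing probe sets or below the floor, the fixed lists, and up to 3 genes of each other list; others (Rps4x probe sets, Rps6ka3, Eef2, Tpt1, CreX-3, Dlk1, Max, Mxd4) were chosen after their values were seen. The same functions recovered planted shifts in simulated arrays under equal medians. Those arrays differed by a single factor and had the same noise at every level. They cannot show whether a shift is recovered where the arrays differ by level. Alternatives covered scaling, floor, a pseudocount of 16, probe set choice and membership. Python 3.11.15, numpy 2.4.6, pandas 2.3.3, scipy 1.17.1, statsmodels 0.14.6 and matplotlib 3.10.9 were used. The number of arrays limits the precision.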

Additional observations from a re-analysis of the deposited data

Results flagged for a closer look

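Signals outside the members are given as values. Rps4l, a transcribed pseudogene related to Rps4x that the rule leaves out, was at 149 in D351 and below the floor in D16 by its brighter probe set, of the s type, so that it was at least 8.57-fold higher in D351 (log2 ratio 3.10). Its other probe set gave 19.2 in D351 and was below the floor in D16. Of the 38 probe sets with several symbols, 34 had a ratio, and 2 of these were at least 2-fold higher in D351 (background 10.6% of all genes). The first had a log2 ratio of 1.01 (925 in D351, 461 in D16), and the other of at least 3.06 (145 in D351, below the floor in D16). All 3 rest on 1 array per clone.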

How the results depend on the processing

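No paired analysis was possible because only 1 array exists per clone, and no replicate could be left out. Scaling decides the sign: under the hybridization controls the median was 0.0372 for members, 0.0273 for the large and 0.0472 for the small subunit, with 9 of 26 genes negative and 0 past 2-fold. Under quantile normalization the medians were -0.0193, -0.0174 and -0.0213, with 14 genes negative and 2 past 1.5-fold. Under loess they were -0.0819, -0.0559 and -0.125, with 19 genes negative and 2 past 1.5-fold. The share of all genes that was negative under these scalings was not counted. A floor at the 25th percentile gave 3 genes past 2-fold and 7 past 1.5-fold, with Rpl35a at -1.80 and Rps13 at -1.03. Chosen after seeing the data: at levels of at least 2000 there were 0 genes past 2-fold and 2 past 1.5-fold, and relative to each chromosome's median large minus small was -0.14. A median counted as moved past the probe set SD divided by the root of its number of genes: 0.102 for members, 0.144 for a subunit and 0.204 for their difference, which takes probe set errors as independent between genes. The 87 group values that remained inside these limits (1.5 times for counts) include that difference under each alternative run. Scaling by a factor on each whole array could change large minus small only through the floor. For 22 named genes, 310 of 312 values moved by less than the SD of 0.52. That limit is wider than the members' median shift of -0.35, so a gene could change sign within it. Under quantile normalization, for example, Rps4x was 0.35, Rps7 0.21 and Rpl10a 0.13, all negative under equal medians.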
